A study of Homo sapiens with 12 samples.

Results

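The ATP-binding cassette (ABC) transporter family was followed through 12 RNA-seq libraries of a human bile duct cancer line. Members were all protein-coding entries of the deposited count table whose symbol is ABC, a letter from A to G and digits. This rule found 45 genes among 20237 protein-coding entries and 55773 entries in all. Enough counts for a test were present for 29 of the 45, among 15691 entries tested. The rule used no measured value. A further 16 entries with an ABC symbol are annotated as pseudogenes or antisense RNAs and were left out.

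ABC proteins bind and hydrolyse ATP at paired nucleotide-binding domains and use the energy to move lipids, bile constituents, conjugated metabolites or drugs across membranes. Full transporters carry the whole pump in a single chain, while shorter members work as dimers. In liver and bile duct the family is known for the apical pumps that export drugs and conjugates into bile and for sterol export to lipoproteins. The ABCE and ABCF classes lack membrane domains and act on ribosomes and translation.

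RBE is an established cholangiocarcinoma line that makes the oncometabolite 2-hydroxyglutarate through mutant IDH1. The study asked how this metabolite alters transcription directed by p53. Cells were held for 22 days in 5 µM AG-120, an inhibitor of mutant IDH1, or in its DMSO vehicle. They were then given 5 µM Nutlin, an MDM2 inhibitor that activates p53, for 72 hours, or DMSO. The 4 groups of 3 libraries are called here vehicle, vehicle with Nutlin, AG-120, and AG-120 with Nutlin. All groups are the same line, so the data describe 1 tumour model, and the labels do not say whether replicates were separate cultures. The p-values therefore measure the spread between these libraries, which may be technical. In bulk RNA, fewer cells that express a gene and less of its RNA per cell cannot be told apart.

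Libraries held 16840161 to 27499433 counts, with a median of 19221201. MDM2 and CDKN1A, canonical p53 targets, rose with Nutlin in vehicle cells (log2 fold change 4.29 and 4.47) and in AG-120 cells (4.36 and 4.52). Of 8 biliary epithelial markers, 6 or 7 had a mean of at least 1 CPM (counts scaled for library size) in each group, and their summed level was 3080 to 4905 CPM. Leukocyte markers summed to at most 0.686 CPM and endothelial markers to at most 1.06 CPM. Of 6 fibroblast markers DCN and LUM were at 0 throughout, and the summed level was 36.0 to 43.4 CPM without and 2.41 to 5.30 CPM with Nutlin. Of 7 hepatocyte markers 2 or 3 reached 1 CPM and APOB was at 0 throughout, with a summed level of 128.2 to 194.5 CPM without and 262.8 to 332.1 CPM with Nutlin. That sum rests mostly on 1 marker, and another expressed marker of the list was lower with Nutlin in both cell states, so the list did not move as a whole. The part of these differences in the Nutlin responses below was not tested. Several libraries stood apart from their group. More than 2-fold deviations from the other libraries of the group covered 7.58%, 11.8% and 15.0% of tested genes in vehicle with Nutlin replicates 1, 2 and 3 and 4.64% in AG-120 replicate 1, but 1.77% to 3.10% in the other libraries. Replicates 2 and 3 of vehicle with Nutlin and AG-120 replicate 1 were chosen from earlier results as the 3 to leave out together.

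Promoter windows are shown first to set the start-site sequences of 4 members with large rises beside that of ABCB1, which fell. RefSeq windows of 250 bases before to 50 after the start (GRCh38.p14) were matched by symbol for 35 of the 45 members. Only the first listed window of each member was kept, so any other start site of a gene is not covered. Whether the kept window holds the start site used in these cells was not tested. The set of all promoter windows was not reduced in this way. Members that were not matched include ABCA4, ABCA8, ABCB4, ABCB5, ABCC1, ABCC3, ABCC8 and ABCG1. The windows lie at chr2:215138577-215138876 (ABCA12, minus strand), chr9:104928106-104928405 (ABCA1, minus), chr11:119148802-119149101 (ABCG4, plus), chr17:69327084-69327383 (ABCA5, minus) and chr7:87713246-87713545 (ABCB1, minus). Each is written 5′ to 3′, and capitals mark every match to the p53 half-site (runs of 10 capitals) or to the GC box GGGCGG on either strand (runs of 6).
ABCA12: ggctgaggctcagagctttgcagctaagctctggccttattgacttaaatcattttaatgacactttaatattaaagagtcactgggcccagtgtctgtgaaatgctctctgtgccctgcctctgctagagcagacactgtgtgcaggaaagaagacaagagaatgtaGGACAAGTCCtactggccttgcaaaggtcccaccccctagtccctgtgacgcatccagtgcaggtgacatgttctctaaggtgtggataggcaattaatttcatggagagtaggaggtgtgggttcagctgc
ABCG4: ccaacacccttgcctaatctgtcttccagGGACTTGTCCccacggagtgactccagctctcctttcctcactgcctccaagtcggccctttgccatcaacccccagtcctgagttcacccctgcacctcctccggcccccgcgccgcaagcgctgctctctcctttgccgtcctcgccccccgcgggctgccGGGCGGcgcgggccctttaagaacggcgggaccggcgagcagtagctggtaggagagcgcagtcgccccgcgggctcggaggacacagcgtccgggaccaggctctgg
ABCA1: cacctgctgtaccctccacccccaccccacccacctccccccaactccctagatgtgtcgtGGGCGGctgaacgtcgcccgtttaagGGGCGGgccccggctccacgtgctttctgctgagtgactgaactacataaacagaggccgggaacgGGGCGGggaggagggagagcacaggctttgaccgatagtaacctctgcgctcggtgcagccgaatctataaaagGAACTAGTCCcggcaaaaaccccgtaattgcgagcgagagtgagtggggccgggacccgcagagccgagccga
ABCA5: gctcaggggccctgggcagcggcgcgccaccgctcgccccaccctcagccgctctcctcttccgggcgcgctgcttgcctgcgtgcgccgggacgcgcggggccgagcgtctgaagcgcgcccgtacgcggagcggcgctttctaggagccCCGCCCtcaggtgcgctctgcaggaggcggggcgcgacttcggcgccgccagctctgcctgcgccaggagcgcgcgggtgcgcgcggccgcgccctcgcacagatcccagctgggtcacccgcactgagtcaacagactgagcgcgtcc
ABCB1: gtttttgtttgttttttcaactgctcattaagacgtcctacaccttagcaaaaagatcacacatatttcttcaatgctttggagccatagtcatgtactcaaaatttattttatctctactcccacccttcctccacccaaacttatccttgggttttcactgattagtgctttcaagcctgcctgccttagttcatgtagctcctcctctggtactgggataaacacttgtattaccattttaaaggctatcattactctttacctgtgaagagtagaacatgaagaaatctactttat

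ABCA12, ABCG4 and ABCA1 each hold a p53 half-site match, at positions -82 to -73, -221 to -212 and -23 to -14 from the start. ABCA5 and ABCB1 hold none in this window. A half-site match was present in 7 of the 35 member windows and in 6.6% of all 35116 promoter windows. Those members were ABCA1, ABCA6, ABCA7, ABCA12, ABCC5, ABCC11 and ABCG4. Matches occurred in 4 of the 10 matched members that rose in both Nutlin responses and in 0 of the 4 that fell in both. The GC box was present in 18 of the 35 member windows and in 15786 of all 35116, and no GC box overlapped a half-site in the printed windows. These matches are descriptions of letters and not evidence of binding. Promoter GC overlapped between the directions. Its median was 68.3% in the 10 windows of members that rose in both responses (ABCC2 lowest, ABCA5 highest at 76.3%) and 68.5% in the 4 of those that fell in both (ABCB1 lowest at 37.7%, ABCC4 highest at 79.7%).

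To compare levels between members, CPM was divided by the length of the longest protein-coding transcript. In vehicle cells ABCC3, an exporter of conjugates across the basolateral membrane, was the highest member at 43.3 ± 1.04 CPM per kilobase (mean ± SD, n = 3). ABCF2 at 41.0 ± 1.59 and ABCC4 at 40.7 ± 3.33 CPM per kilobase followed, and the library ranges of these neighbours overlapped. ABCF1, ABCE1 and ABCC1 came next at 33.1 ± 0.533, 29.9 ± 1.20 and 27.2 ± 1.20 CPM per kilobase. The apical conjugate pump ABCC2 held place 9 with 23.3 ± 1.18 CPM per kilobase, and the multidrug pump ABCB1 place 14 with 7.96 ± 0.341. ABCA12 stood at place 23 with 0.899 ± 0.0345 CPM per kilobase.

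The 16 members that could not be tested were at or near the limit of detection in each group. ABCA6, ABCC9 and ABCG8 had 0 counts in every library, and ABCA8, ABCA9, ABCB5, ABCB11 and ABCG5 had 1 to 4 counts over all 12. The hepatocyte bile salt pump ABCB11 (3 counts), the phosphatidylcholine floppase ABCB4 (37 counts) and the apical drug pump ABCG2 (55 counts) belong here, as do both potassium channel regulators ABCC8 and ABCC9. ABCA4, ABCA10, ABCB6, ABCC12 and ABCD2 had 13 to 62 counts in all. ABCB6 lies almost entirely within the ATG9A entry (9219 of 9223 bases), which had 28035 counts against its 47, so reads in the shared part may not have been assigned to ABCB6.

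**Figure D1:**
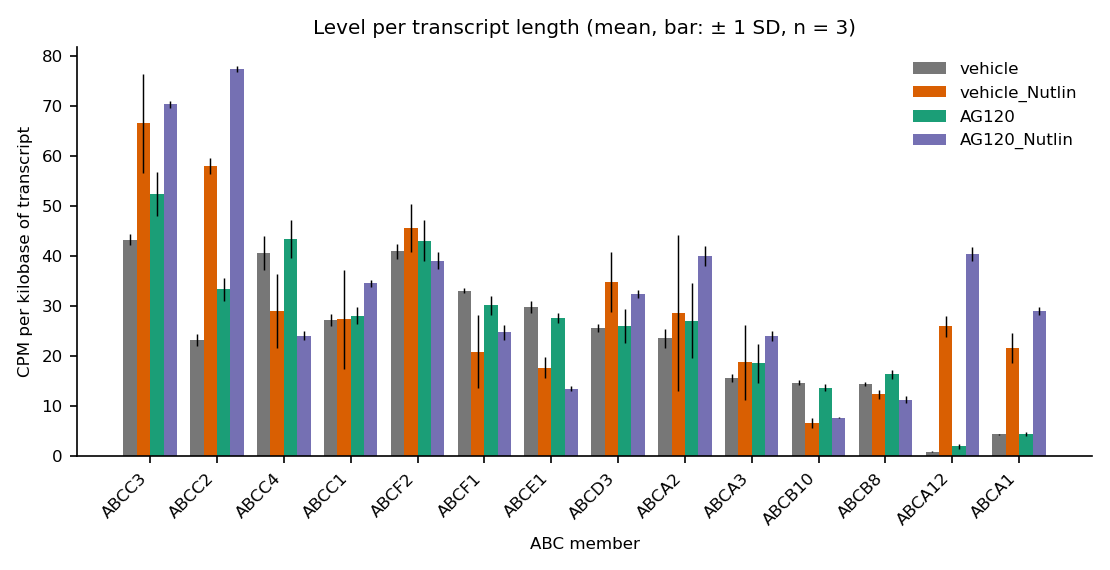
Level of 14 ABC members in CPM per kilobase of the longest protein-coding transcript, as group means with bars of ± 1 SD over 3 libraries. In cells with Nutlin ABCC2 moves up to 58.1 and 77.5, and ABCA12 to 26.0 and 40.4, while ABCC4, ABCE1 and ABCB10 shrink.

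Nutlin reordered the family. In AG-120 cells with Nutlin ABCC2 took the first place at 77.5 ± 0.514 CPM per kilobase and ABCC3 the second at 70.4 ± 0.654, with ranges that did not overlap. ABCA12 moved to place 3 with 40.4 ± 1.41 CPM per kilobase, next to ABCA2 at 40.1 ± 2.06. In vehicle cells with Nutlin ABCC3 (66.6 ± 9.88) and ABCC2 (58.1 ± 1.61 CPM per kilobase) led, with overlapping ranges, and ABCA12 held place 8. Of the family total per kilobase, ABCC2 made up 6.03 ± 0.393% in vehicle cells, 12.2 ± 1.34% in vehicle cells with Nutlin, 7.92 ± 0.270% in AG-120 cells and 14.5 ± 0.229% in AG-120 cells with Nutlin. Summed over the 45 members, the level was 1942 ± 30.0 CPM in vehicle cells and 2657 ± 291 CPM in vehicle cells with Nutlin. It was 2156 ± 198 CPM in AG-120 cells and 3129 ± 54.6 CPM in AG-120 cells with Nutlin. Every library with Nutlin was above every library of its own control in this sum (2322 to 2847 against 1913 to 1973 CPM in vehicle cells, 3070 to 3178 against 2012 to 2382 CPM in AG-120 cells).

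The first comparison was the Nutlin response, taken separately in vehicle and in AG-120 cells. Genes were called changed at an adjusted p of at most 0.05 (edgeR quasi-likelihood test, Benjamini-Hochberg adjustment over 15691 genes). In vehicle cells 14 of the 29 tested members rose and 5 fell, and across all tested genes 53.9% were called, 26.8% upward and 27.1% downward. In AG-120 cells 14 rose and 5 fell as well, beside 27.0% and 28.8% of all genes (55.7% in either direction). Groups did not overlap for 13 members upward and 6 downward in vehicle cells (background 28.3% and 30.9%) and for 18 and 7 in AG-120 cells (35.1% each). Changes of at least 2-fold were called in 8 members upward and 2 downward in vehicle cells (background 11.8% and 13.9%). In AG-120 cells these were 7 and 2 (12.9% and 15.2%). ABCG4 and ABCC11 passed the filter on low counts only through Nutlin libraries, so the filter itself favoured a rise in them. The counts over tested members are therefore no more than a description.

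The responses were called in the same direction for 17 members, 13 upward and 4 downward, and for 22.0% of all genes upward and 22.9% downward. Those upward in both include ABCA1, ABCA5, ABCA7, ABCA12, ABCA13, ABCB9, ABCC2, ABCC3, ABCD3, ABCF3, ABCG1 and ABCG4, and those downward in both were ABCB1, ABCB10, ABCC4 and ABCE1. No member was called in opposite directions. ABCC11 rose and ABCF1 fell by the test in vehicle cells alone, and ABCC5 rose and ABCB8 fell in AG-120 cells alone. The difference between the responses was not called for any of these 4 (adjusted p = 0.742, 0.638, 0.718 and 0.388 for ABCC11, ABCF1, ABCC5 and ABCB8). Members called in neither include ABCA2, ABCA3, ABCC1, ABCC6, ABCC10, ABCD4 and ABCF2.

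**Figure D2:**
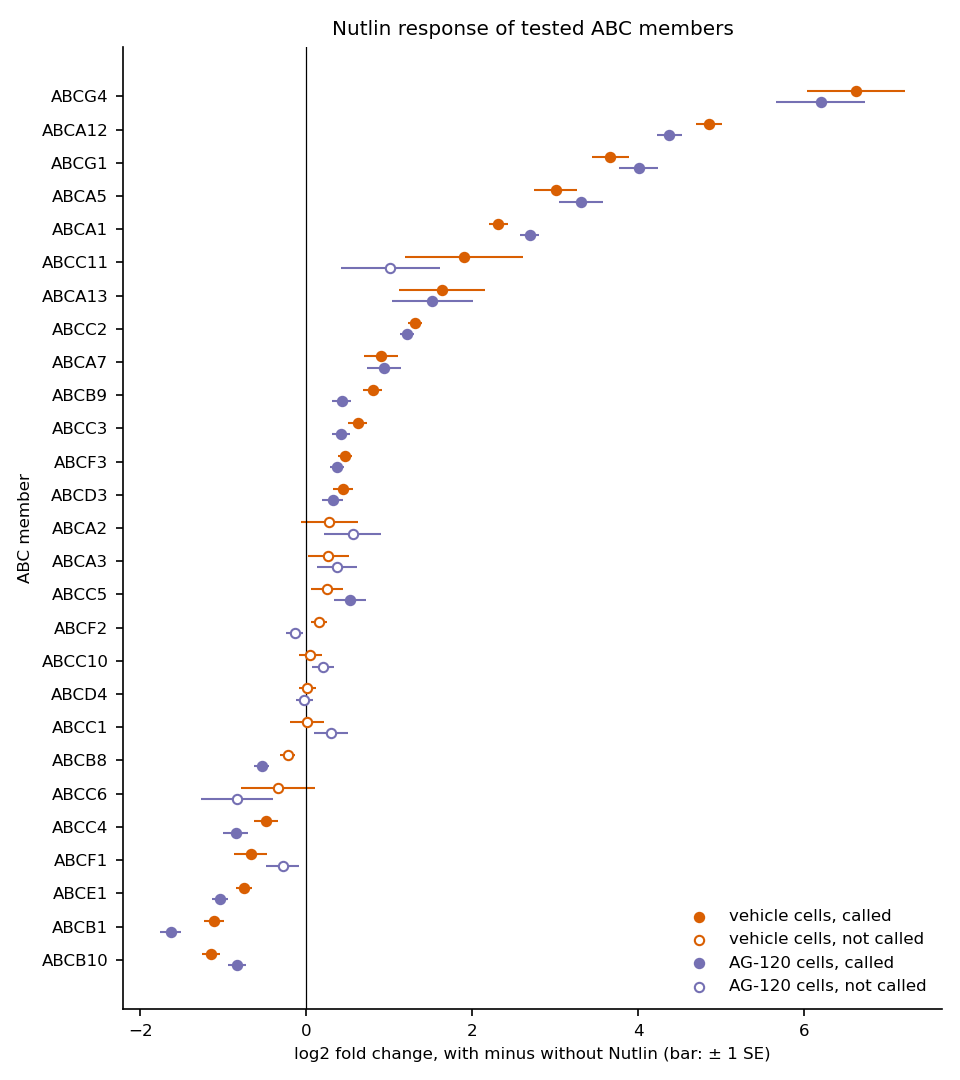
Nutlin response of tested ABC members as log2 fold change with bars of ± 1 standard error, in vehicle cells (orange) and AG-120 cells (purple), with filled points where the change was called. ABCG4, ABCA12, ABCG1, ABCA5 and ABCA1 lie at 2.32 or above in both cell states, and ABCB1 reaches -1.63 in AG-120 cells.

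The sterol and phospholipid transporters of the ABCA class, ABCG1 and ABCG4 held the largest changes. Of 16 such members 9 were tested, 7 rose and 0 fell in each response, beside 26.8% and 27.0% of all genes called upward. ABCG4, which passed the filter only through Nutlin libraries, is among the 7. The median log2 fold change of the 9 tested members was 2.32 in vehicle cells and 2.69 in AG-120 cells. The medians over all tested genes were -0.015 and 0.001. ABCA12 (hg19 chromosome 2, 215796266 to 216003151), a lipid transporter known from lamellar granules of the skin, had 8.02, 8.54 and 7.98 CPM in the vehicle libraries and 251, 243 and 216 CPM with Nutlin. The AG-120 libraries had 22.2, 16.8 and 13.97 CPM, and those with Nutlin 355, 368 and 380 CPM. The lowest Nutlin library was thus far above the highest control, and no 2 of the 4 groups overlapped. The log2 fold change was 4.85 (SE 0.159, adjusted p = 8.26e-11) in vehicle cells and 4.38 (SE 0.154, adjusted p = 1.35e-10) in AG-120 cells.

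ABCG4 (chromosome 11, 119019722 to 119033360), a sterol exporter described mainly in brain, was close to absent without Nutlin. Its vehicle libraries held 1, 0 and 2 counts and its AG-120 libraries 5, 0 and 0. With Nutlin there were 112, 89 and 90 counts in vehicle cells and 110, 123 and 104 in AG-120 cells. Every Nutlin library was above every control library. Scaled for depth, the ratio of summed counts was 109.7 in vehicle cells (95% interval 37.2 to 535.1) and 78.4 in AG-120 cells (33.3 to 243.1), with intervals that cover counting error only. The fitted log2 fold changes, 6.63 and 6.20 (adjusted p = 7.97e-07 and 5.81e-07), rest on the same few control counts.

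ABCG1 (chromosome 21, 43619799 to 43717354) exports cholesterol to high-density lipoprotein. It measured 0.852, 1.70 and 1.55 CPM in vehicle cells and 17.3, 14.8 and 20.1 CPM with Nutlin. In AG-120 cells the values were 0.729, 0.736 and 1.06 CPM, rising to 13.9, 13.9 and 12.7 CPM with Nutlin. The Nutlin groups were separate from their controls, with log2 fold changes of 3.66 (SE 0.223, adjusted p = 2.21e-08) and 4.01 (SE 0.239, adjusted p = 1.52e-08). ABCA1 (chromosome 9, 107543283 to 107690518) loads cholesterol and phospholipid onto apolipoprotein A-I. It had 46.2, 44.2 and 46.5 CPM in vehicle and 254, 234 and 193 CPM in vehicle with Nutlin. The AG-120 libraries had 48.8, 50.4 and 42.5 CPM and those with Nutlin 298, 303 and 315 CPM. Both responses were separate from their controls (log2 fold change 2.32, SE 0.112, adjusted p = 2.54e-09 and 2.69, SE 0.113, adjusted p = 6.33e-10).

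ABCA5 (chromosome 17, 67240452 to 67323385), a lysosomal and endosomal member, had 0.852, 0.905 and 0.757 CPM in vehicle cells and 7.10, 5.99 and 7.05 CPM with Nutlin. The AG-120 cells had 0.943, 0.932 and 0.475 CPM, and 9.77, 7.89 and 6.12 CPM with Nutlin. The groups did not overlap, and the log2 fold changes were 3.01 (SE 0.258, adjusted p = 5.70e-07) and 3.31 (SE 0.260, adjusted p = 2.20e-07). ABCA13 was scarce throughout, at 3 to 13 counts without and 15 to 28 counts with Nutlin per library. Its log2 fold changes of 1.64 and 1.52 were called (adjusted p = 0.0169 and 0.0175), but the vehicle call was lost on leaving out vehicle replicate 2 or 3 or vehicle with Nutlin replicate 1 (highest adjusted p = 0.0822). The vehicle call was also lost in the fit of the compared groups alone. The call in AG-120 cells was lost without AG-120 replicate 1 or AG-120 with Nutlin replicate 1 or 3 (highest adjusted p = 0.0684). ABCA7, a phospholipid transporter linked to phagocytosis, rose with log2 fold changes of 0.90 and 0.94 (SE 0.208 and 0.205, adjusted p = 0.00262 and 0.00171). ABCA2 and the surfactant lipid transporter ABCA3 were not called in either response (log2 fold changes 0.28 and 0.27 in vehicle cells, 0.56 and 0.37 in AG-120 cells).

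**Figure D3:**
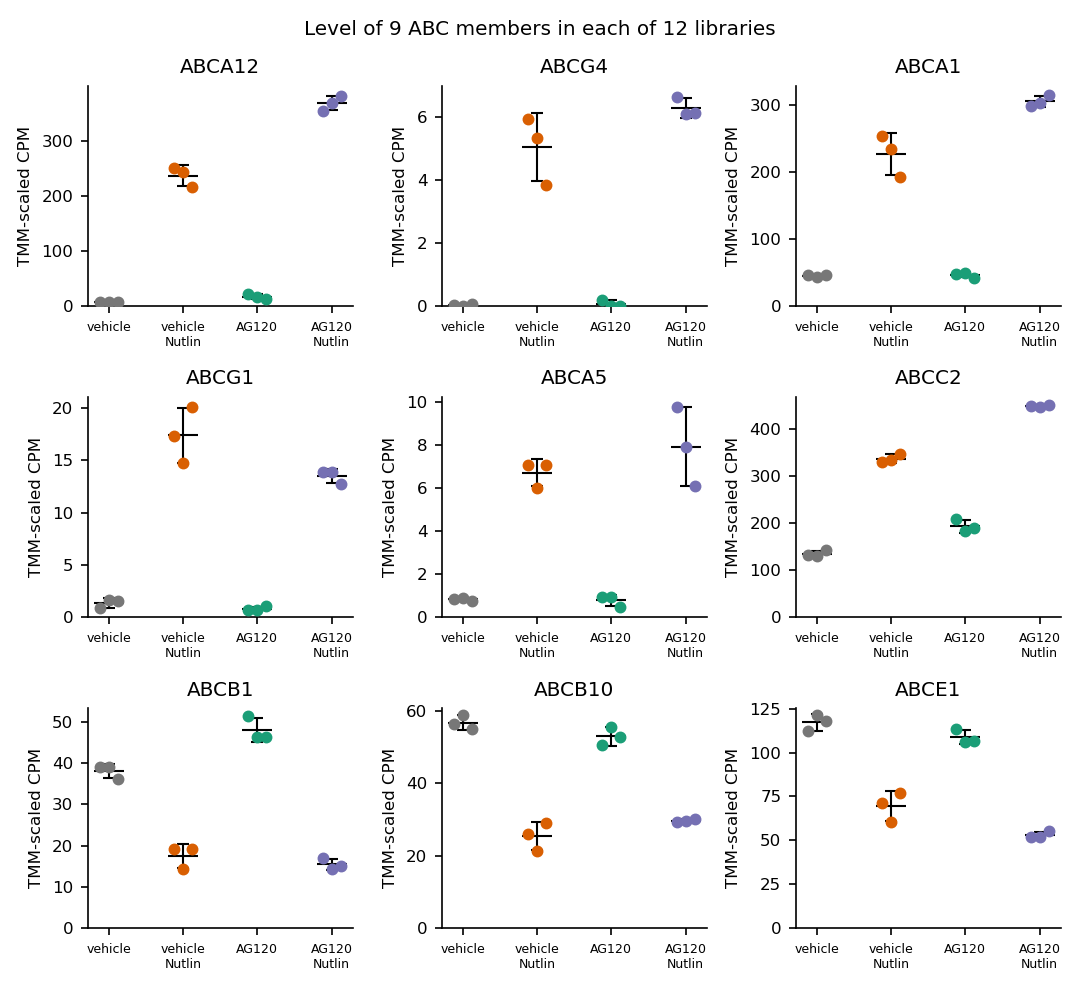
TMM-scaled CPM of 9 ABC members in each of the 12 libraries, with group means and bars of ± 1 SD (n = 3). ABCA12, ABCG4, ABCA1, ABCG1, ABCA5 and ABCC2 are higher in every Nutlin library than in every library without Nutlin, and ABCB1, ABCB10 and ABCE1 are lower in every one.

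Among the drug and canalicular pumps ABCB1 (chromosome 7, 87133175 to 87342611), the P-glycoprotein that expels many drugs, was the sole tested member of 5. Its level was 39.0, 38.9 and 36.1 CPM in vehicle cells and 19.3, 14.3 and 19.2 CPM with Nutlin. In AG-120 cells it was 51.4, 46.4 and 46.2 CPM without and 16.9, 14.4 and 15.1 CPM with Nutlin. Both Nutlin groups lay below all 6 libraries without Nutlin, and they overlapped each other. ABCB1 fell by 1.11 (SE 0.123, adjusted p = 6.65e-06) and by 1.63 (SE 0.125, adjusted p = 1.75e-07) on the log2 scale in vehicle and AG-120 cells. The RUNDC3B entry shares 85748 of its 209437 bases and held 254 counts against 7420 for ABCB1, and its neighbour ABCB4 (23423 bases away) was not tested.

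The conjugate and nucleotide pumps of the ABCC class moved in different directions. Of 8 tested members 3 were higher and 1 lower in each response, near the shares over all genes (26.8% upward and 27.1% downward in vehicle cells). ABCC11, which passed the filter only through Nutlin libraries, is among the 3 in vehicle cells. ABCC2 (chromosome 10, 101542489 to 101611949), the apical exporter of bilirubin and glutathione conjugates, had 134, 130 and 143 CPM in vehicle cells and 330, 335 and 348 CPM with Nutlin. In AG-120 cells it had 209, 183 and 190 CPM, and 450, 447 and 453 CPM with Nutlin. The 4 groups were fully separate from each other. The log2 fold changes with Nutlin were 1.32 (SE 0.0847, adjusted p = 3.66e-08) and 1.21 (SE 0.0844, adjusted p = 6.80e-08). ABCC3 rose as well, from 247.7 ± 5.97 to 380.6 ± 56.5 CPM in vehicle cells and from 300.1 ± 24.7 to 402.6 ± 3.74 CPM in AG-120 cells (log2 fold change 0.62 and 0.42, adjusted p = 0.000394 and 0.00529).

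ABCC4 (chromosome 13, 95672083 to 95953687), an exporter of cyclic nucleotides and prostaglandins, fell. Its vehicle libraries had 249, 250 and 216 CPM and those with Nutlin 151, 140 and 219 CPM, so that replicate 3 with Nutlin lay within the vehicle range. In AG-120 cells the groups were apart, at 279, 248 and 236 CPM without and 141, 136 and 147 CPM with Nutlin. The log2 fold change was -0.48 (SE 0.147, adjusted p = 0.0142) in vehicle cells and -0.85 (SE 0.148, adjusted p = 0.000298) in AG-120 cells. The vehicle call for ABCC4 was lost without vehicle replicate 2 or vehicle with Nutlin replicate 1 or 2 (highest adjusted p = 0.0614). It was also lost in the fit of the compared groups alone and with either correction for transcript length. ABCC1 (0.01 and 0.30), ABCC10 (0.05 and 0.20) and ABCC6 (-0.34 and -0.83) had log2 fold changes that were not called. ABCC6 has near-identical pseudogene copies that may share its reads, so its value is uncertain. ABCC5, a cyclic nucleotide exporter, had a log2 fold change of 0.25 in vehicle cells and rose by 0.53 in AG-120 cells (adjusted p = 0.297 and 0.0330). The ABCC5 call was lost with library totals and without AG-120 replicate 1 or 3 or any of AG-120 with Nutlin replicates 1, 2 or 3. ABCC11 was scarce, with 1 to 14 counts per library, and was tested only because of its counts in Nutlin libraries. Its call in vehicle cells was lost with DESeq2, with no filter, with the 1 CPM filter, with the replicate block, in the fit of the compared groups alone and without vehicle replicate 1 or 3, vehicle with Nutlin replicate 1 or AG-120 with Nutlin replicate 2.

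The short ABCB members of mitochondria and lysosomes, which work as dimers, were mixed. ABCB10 (chromosome 1, 229652329 to 229694442), an inner-membrane transporter needed for heme synthesis, had 56.2, 58.8 and 54.9 CPM in vehicle cells and 26.1, 21.4 and 29.1 CPM with Nutlin. The AG-120 cells had 50.4, 55.5 and 52.7 CPM, and 29.2, 29.5 and 30.2 CPM with Nutlin. All Nutlin libraries were lower than all others, with log2 fold changes of -1.15 (SE 0.109, adjusted p = 1.49e-06) and -0.84 (SE 0.108, adjusted p = 2.37e-05). ABCB8 (chromosome 7, 150725510 to 150744869), part of a mitochondrial potassium channel complex, had 66.9, 69.4 and 65.9 CPM in vehicle cells and 53.3, 58.2 and 62.0 CPM with Nutlin. In AG-120 cells it had 81.2, 76.0 and 73.0 CPM, and 49.2, 54.1 and 55.6 CPM with Nutlin. Neither pair overlapped, but the call was made in AG-120 cells alone (log2 fold change -0.53, SE 0.0909, adjusted p = 0.000246), with -0.22 (SE 0.0906, adjusted p = 0.0564) in vehicle cells. ABCB9, a lysosomal peptide transporter, rose in both (0.80 and 0.43, adjusted p = 7.37e-05 and 0.00700).

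In the ABCD class 2 of 3 tested members rose in each response and 0 fell, where 26.8% and 27.0% of all genes rose. ABCD3, a peroxisomal importer of branched and long chain fatty acids, was among them. It went from 90.8 ± 2.68 to 123.3 ± 21.0 CPM in vehicle cells and from 92.0 ± 11.9 to 114.7 ± 2.60 CPM in AG-120 cells (log2 fold change 0.44 and 0.32, adjusted p = 0.00828 and 0.0416). The ABCD3 call in AG-120 cells was lost without any single one of vehicle replicates 1, 2 and 3, AG-120 replicates 2 and 3, or AG-120 with Nutlin replicates 1, 2 and 3. That call was also lost with DESeq2, with DESeq2 size factors in edgeR, with no filter, with the replicate block and with the length offset within groups. The lysosomal cobalamin transporter ABCD4 had log2 fold changes of 0.01 and -0.02 and was not called.

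The members without a membrane domain split. ABCE1 (chromosome 4, 146019084 to 146050331), which separates ribosomal subunits after termination, had 112, 121 and 118 CPM in vehicle cells and 71.2, 60.4 and 77.0 CPM with Nutlin. The AG-120 cells had 113, 106 and 107 CPM, and 52.2, 51.7 and 55.3 CPM with Nutlin. All Nutlin libraries were below all others, with the AG-120 group lowest, and the log2 fold changes were -0.75 (SE 0.0965, adjusted p = 2.47e-05) and -1.03 (SE 0.0973, adjusted p = 1.24e-06). ABCF1 (chromosome 6, 30539153 to 30564956), which binds initiation factor eIF2, had 114, 115 and 117 CPM in vehicle cells and 91.9, 82.8 and 43.7 CPM with Nutlin. In AG-120 cells it had 111, 106 and 98.0 CPM, and 81.9, 85.0 and 92.1 CPM with Nutlin. Neither pair overlapped, and replicate 3 of vehicle with Nutlin was low. ABCF1 was called in vehicle cells (-0.67, SE 0.199, adjusted p = 0.0127) and not in AG-120 cells (-0.28, SE 0.198, adjusted p = 0.243). The vehicle call was lost in the fit of the compared groups alone. Without vehicle with Nutlin replicate 3 the AG-120 cell response of ABCF1 was called (adjusted p = 0.00192). ABCF3 rose (0.47 and 0.37, adjusted p = 0.000473 and 0.00232), though its entry lies within that of EIF2B5, and ABCF2 was called in neither (0.16 and -0.14). ABCE1 shares 18342 of 31248 bases with OTUD4, and whether counting used strand is not given in the sources used here.

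**Figure D4:**
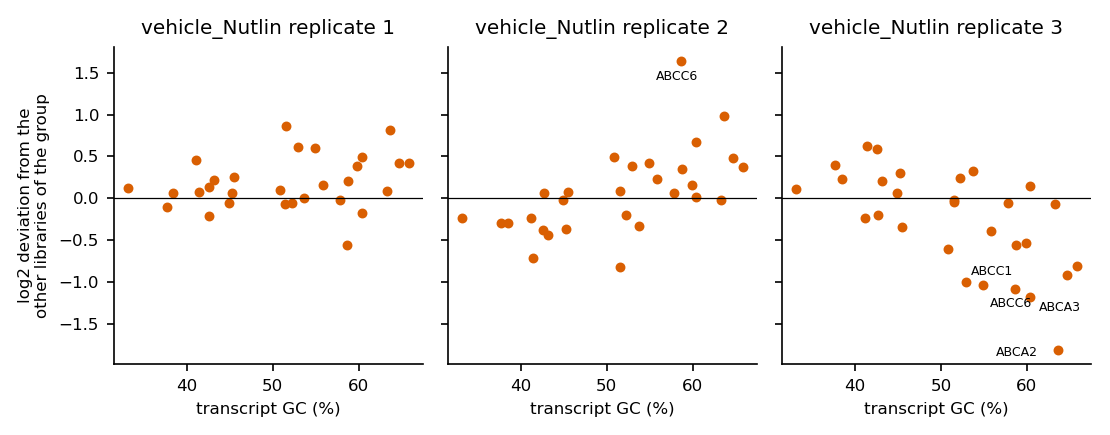
Log2 deviation of each tested member from the other 2 libraries of its group (CPM plus 0.1) against the GC content of its longest protein-coding transcript, for the 3 vehicle libraries with Nutlin. In replicate 3 the GC-rich members ABCA2, ABCA3, ABCC6 and ABCC1 lie more than 1 below the other libraries.

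The Nutlin responses in vehicle cells rest on a group with uneven libraries. Vehicle with Nutlin replicate 3 was low for ABCA2 (-1.80 on the log2 scale against the other libraries of the group), ABCA3 (-1.17), ABCC6 (-1.07), ABCC1 (-1.03), ABCF1 (-0.99) and ABCA7 (-0.91), among others. Across the 29 members the deviation went with transcript GC at a Spearman correlation of 0.292, 0.656 and -0.643 in replicates 1, 2 and 3, and over all genes with a GC value at 0.121, 0.238 and -0.231. These points share a library and a base composition, so they are a description with no p. Without replicate 3, 18 members rose and 7 fell in the vehicle comparison, with ABCA2, ABCA3, ABCC1 and ABCC5 added upward and ABCB8 among those added downward. In that fit 29.1% of all genes rose and 29.1% fell in vehicle cells. In AG-120 cells 17 rose and 8 fell, beside 31.1% and 33.1% of all genes. Those groups do not hold that library, but share the low-count filter, the scaling and the estimate of spread with it.

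The second comparison was the effect of AG-120, without and with Nutlin. It shares its libraries with the Nutlin comparisons, so the values are given side by side and are not independent. Without Nutlin 1 of 29 members rose and 0 fell, while 0.051% of all genes were higher and 0.0% lower. With Nutlin 2 rose and 0 fell, where 0.433% of all genes were higher and 1.93% lower (2.36% in all). None of these members reached 2-fold with Nutlin, as 0.0637% of all genes did upward and 0.452% downward. Without adjustment 6 members passed p of 0.05 in each comparison, as did 7.99% of all genes without Nutlin and 19.5% with it. DESeq2 called 2 members higher and 0 lower without Nutlin (all genes 0.485% and 0.105%), and 3 higher and 1 lower with Nutlin (1.62% and 4.08%). Groups did not overlap for 6 members upward and 1 downward without Nutlin (background 11.4% and 10.3%) and for 6 and 4 with Nutlin (14.2% and 14.1%).

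ABCA12 was the member called in both. Its AG-120 libraries (22.2, 16.8 and 13.97 CPM) were all above the vehicle libraries (7.98 to 8.54 CPM), a 2.16-fold rise (log2 1.11, SE 0.145, adjusted p = 0.0132). With Nutlin the AG-120 libraries (355 to 380 CPM) were all above the vehicle ones (216 to 251 CPM), a 1.55-fold rise (log2 0.64, SE 0.133, adjusted p = 0.0285). The call without Nutlin was lost on leaving out any of vehicle replicates 1, 2 or 3 (adjusted p = 0.123, 0.104 and 0.164), while the log2 fold change stayed between 0.91 and 1.26. The call with Nutlin was lost in 7 of the 12 fits that left out a library (highest adjusted p = 0.134, log2 fold change 0.57 to 0.68). It was also lost in a fit of the compared groups alone and with the length correction, where the ABCA12 difference was 0.39 (adjusted p = 0.106).

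ABCC2 was higher in all 3 AG-120 libraries than in all vehicle libraries, both without Nutlin (183 to 209 against 130 to 143 CPM) and with it (447 to 453 against 330 to 348 CPM). The difference was 0.52 on the log2 scale without Nutlin (SE 0.0836, adjusted p = 0.0539), just short of the threshold. With Nutlin it was 0.41 (SE 0.0832, adjusted p = 0.0230) and was called. DESeq2 called ABCC2 without Nutlin too. The call with Nutlin was lost without vehicle replicate 1 or without any of AG-120 with Nutlin replicates 1, 2 or 3, with the log2 fold change between 0.40 and 0.44 and the highest adjusted p at 0.130. It was also lost with the length correction, where the ABCC2 difference was 0.27 (adjusted p = 0.203). The fit of the compared groups alone, the replicate block and the length offset within groups lost the call too.

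ABCB1 had log2 differences of 0.34 without Nutlin (SE 0.120, adjusted p = 0.4998) and -0.19 with Nutlin (SE 0.125, adjusted p = 0.413). The 3 AG-120 libraries lay above the vehicle libraries without Nutlin, and the groups overlapped with Nutlin. ABCA7 (0.51 and 0.54, adjusted p = 0.561 and 0.171) and ABCC3 (0.28 and 0.08, adjusted p = 0.544 and 0.693) were not called. ABCA1 had 0.05 without and 0.43 with Nutlin (adjusted p = 0.941 and 0.0567), and ABCE1 -0.11 and -0.39 (adjusted p = 0.827 and 0.0567). ABCG1 had -0.71 and -0.37 (adjusted p = 0.528 and 0.291). For ABCG4 without Nutlin the ratio of AG-120 to vehicle counts was 1.77 (95% interval 0.345 to 11.4), from 5 and 3 counts.

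**Figure D5:**
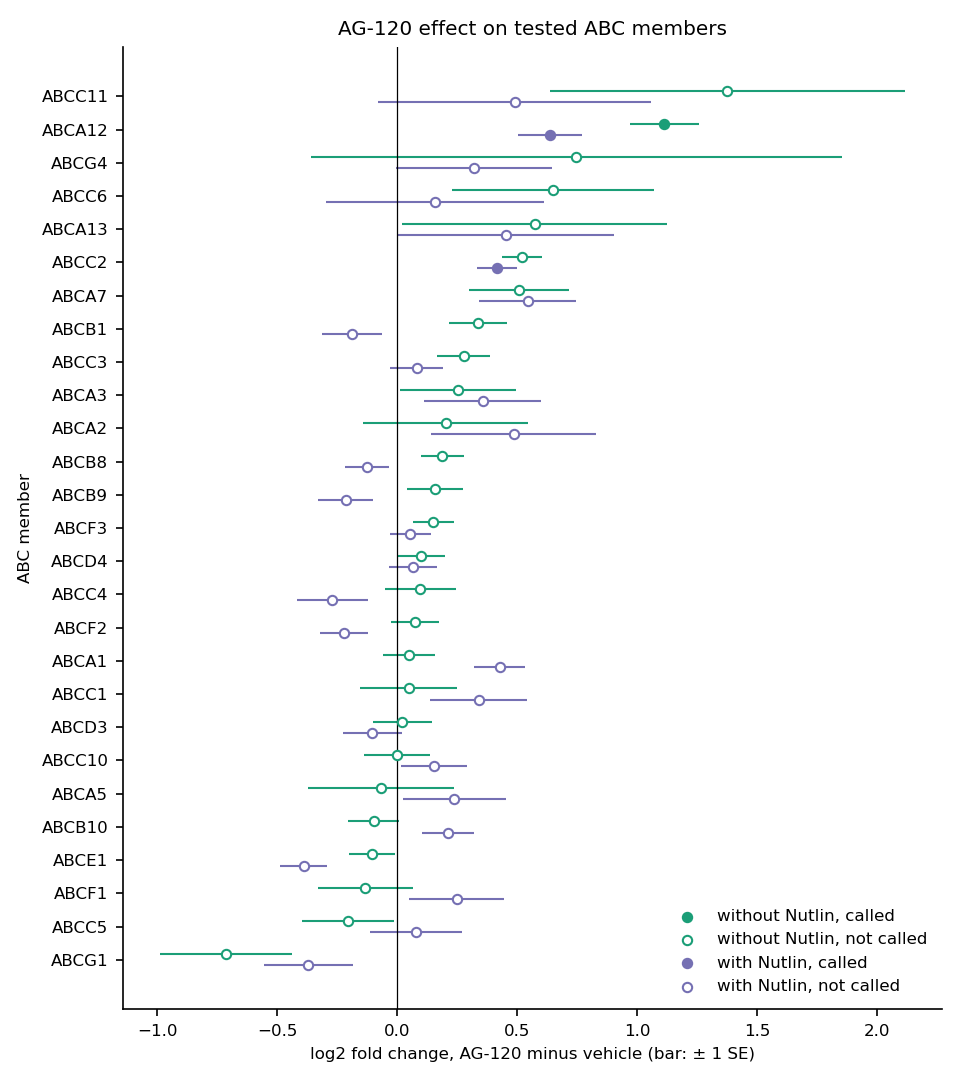
AG-120 effect on tested ABC members as log2 fold change with bars of ± 1 standard error, without Nutlin (green) and with Nutlin (purple), with filled points where the change was called. ABCA12 is filled in both (1.11 and 0.64) and ABCC2 with Nutlin (0.41).

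Whether the Nutlin response differed between AG-120 and vehicle cells was tested as an interaction. It was called for 0 of 29 members by edgeR, where 0.363% of all genes were called, 0.0319% higher and 0.331% lower, and for 0 by DESeq2 (all genes 0.163% higher and 1.25% lower). Without adjustment 5 members passed p of 0.05, as did 11.0% of all genes. These members were ABCA1 (0.38), ABCA12 (-0.48), ABCB1 (-0.52), ABCB8 (-0.31) and ABCB9 (-0.37 on the log2 scale). The adjusted p was 0.379 for ABCA1, 0.394 for ABCA12, 0.293 for ABCB1, 0.388 for ABCB8 and 0.432 for ABCB9. The ABCB1 difference had an SE of 0.174 and ranged from -0.65 to -0.46 over fits that left out a library. When vehicle with Nutlin replicates 2 and 3 and AG-120 replicate 1 were left out together, the fitted difference was -0.59 (adjusted p = 0.0145 by edgeR). That fit leaves 1 library of vehicle with Nutlin, which is assumed to vary like the other groups.

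Genes that work with the family were read from lists drawn up for each class. The list counts below stand beside 26.8% of all genes called upward and 27.1% downward in vehicle cells, and 27.0% and 28.8% in AG-120 cells. The relatives TAP1 and TAP2, which form the peptide transporter of antigen presentation, went opposite ways with Nutlin. TAP1 rose from 40.5 ± 0.171 to 230.9 ± 61.8 CPM in vehicle cells, and TAP2 fell from 50.4 ± 2.06 to 18.5 ± 1.92 CPM (log2 fold change 2.51 and -1.45, adjusted p = 1.89e-08 and 1.40e-07). The chloride channel CFTR was not tested. Of 14 tested sterol partners of ABCA1 and ABCG1, 4 rose and 2 fell in vehicle cells and 4 rose and 4 fell in AG-120 cells. MYLIP, an LXR target that encodes a ubiquitin ligase, rose by 1.46 and 1.75, and LPCAT3, a phospholipid remodelling enzyme, rose by 0.86 and 0.73 on the log2 scale. APOC1, an apolipoprotein gene, fell by 2.38 and 4.36, and SREBF1, an LXR target that drives lipid synthesis, had -0.14 and 0.05 and was not called. Of 20 regulators known to control ABC genes, 7 rose and 5 fell in vehicle cells and 6 and 5 in AG-120 cells. Of the LXR genes NR1H2 rose by 0.92 and 0.78, while NR1H3 had log2 fold changes of -0.36 in vehicle cells and -0.75 in AG-120 cells (adjusted p = 0.113 and 0.00379), the latter called lower. The lysosomal regulator TFEB rose by 1.58 and 2.05, and PPARG fell by 1.40 and 1.28 on the log2 scale.

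The remaining lists were also mixed, and are read against the same shares (26.8% upward and 27.1% downward in vehicle cells, 27.0% and 28.8% in AG-120 cells). Apical scaffold and canalicular trafficking genes had 4 of 13 higher and 8 lower in vehicle cells, and 3 and 8 in AG-120 cells. PDZK1, a scaffold that binds the tail of ABCC2, fell by 3.29 and 4.03 on the log2 scale. Of 2 other PDZ scaffold genes on the list SLC9A3R1 rose by 0.83 and 0.99, and SLC9A3R2 fell by 1.27 and 1.48. Peroxisomal partners of the ABCD class had 8 of 19 higher and 1 lower in vehicle cells but 7 and 7 in AG-120 cells, with CROT higher by 2.92 and 2.91. Mitochondrial iron-sulfur and heme partners had 8 of 22 higher and 4 lower in vehicle cells, and 5 and 5 in AG-120 cells. Among them FDXR, a known p53 target, rose by 4.14 and 3.75. Translation partners of ABCE1 and the ABCF class had 7 of 17 higher and 4 lower, then 6 and 5. EIF3J, which works beside ABCE1 on the small subunit, fell by 0.66 and 0.86 on the log2 scale. On the same list PELO rose by 0.67 and 0.79, IMPACT by 0.72 and 0.39, and ATF4 by 0.51 and 0.57.

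Of 18 skin barrier genes listed beside ABCA12 only 10 were tested, and the cornified envelope genes LOR and IVL were among those at 0 in every group. Of the 10, 6 were higher and 1 lower in vehicle cells, and 4 and 2 in AG-120 cells (all genes 26.8% and 27.1%, then 27.0% and 28.8%). FLG, which encodes filaggrin, rose by 3.20 and 2.34, and UGCG, the glucosylceramide synthase, fell by 1.07 and 1.43 on the log2 scale. Conjugating enzymes that supply ABCC substrates had 7 of 17 higher and 4 lower, then 5 and 5. Solute carriers of bile acids and organic ions had 4 of 12 higher and 3 lower, then 4 and 4, with the bile acid exporter subunit SLC51B higher by 3.72 and 5.08. KCNJ11, the channel partner of ABCC8, rose by 0.88 and 1.74 while ABCC8 itself held at most 4 counts in any library. With AG-120 few listed genes were called. NPC1L1, the cholesterol uptake transporter, rose by 1.55 without Nutlin (adjusted p = 0.0245). With Nutlin the genes called include GCLC (0.35) and GCLM (0.35), which were higher, and EIF2S3 (-0.54), which was lower. Their adjusted p by edgeR was close to the threshold, at 0.0457 for GCLC, 0.0362 for GCLM and 0.0457 for EIF2S3.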

How the data were processed

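Whole-transcriptome RNA of RBE cells was measured in 12 libraries, 3 in each of 4 groups, after poly A enrichment, per the labels' protocols. The authors deposited raw counts per gene symbol on hg19, and STAR and HTSeq, along with Partek and DESeq2, are listed without roles per the submitters' processing notes. Their versions are not given in the sources used here. Whether counting used strand is not given either, so reads of overlapping genes cannot be told apart, and reads shared with pseudogene copies may be split or lost. Groups and replicate numbers were taken from the labels.

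The count table was read as deposited. Genes with low counts were removed by filterByExpr, libraries were scaled by TMM, and all 4 groups were fitted together by the quasi-likelihood test of edgeR 4.0.16 (limma 3.58.1, R 4.3.3), with adjustment over all tested genes and a threshold of 0.05. Levels are TMM-scaled CPM. Levels between genes were divided by the longest protein-coding transcript in GENCODE. The model was run on simulated counts with changes set in a small part of the genes, in the AG-120 groups alone. That run does not cover the Nutlin comparisons, where most genes were called, and its outcome is not given here.

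Members named in full were ABCA12, ABCC2 and ABCB1, those called with AG-120 or in the interaction, and up to 6 per direction with the largest called Nutlin change and a mean of at least 1 CPM. Members and lists were chosen with earlier results of these data known. The alternatives were DESeq2 1.42.0, its size factors, library totals, other low-count filters, a replicate block, fits of the compared groups alone, fits without single libraries or without the 3 that stood apart, and offsets for transcript length, of which the one within groups was added after seeing the data. Samples with the same replicate number did not deviate together, so the numbers were not used to pair samples. Some genes counted in the totals are not reported here by name or plotted individually.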

Additional observations from a re-analysis of the deposited data

How the results depend on the processing

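Under the alternatives 1335 values kept their direction and their side of the threshold, 34 lost a call, 30 gained one and 17 changed sign, none of the last called. Leaving out each library in turn gave 11 to 18 members higher and 4 to 7 lower with Nutlin in vehicle cells, and 11 to 17 and 5 to 8 in AG-120 cells. With AG-120 it gave 0 to 3 higher and 0 to 0 lower without Nutlin, 0 to 3 and 0 to 1 with Nutlin, and 0 to 0 in either direction for the interaction. Fits of the compared groups alone called 3 members lower with Nutlin in vehicle cells and 8 in AG-120 cells, and 2 higher with AG-120 without Nutlin and 0 with it. For AG-120 without Nutlin DESeq2, no filter, and a filter of 1 CPM in 3 libraries each called 2 higher. For AG-120 with Nutlin no filter called 4 higher and the length offset 0, and DESeq2, the 1 CPM filter and the length offset each called 1 lower. With DESeq2 size factors in edgeR 1 partner gene was higher and 1 lower with AG-120 and Nutlin.

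Without vehicle with Nutlin replicates 2 and 3 and AG-120 replicate 1, 8 members were lower with Nutlin in AG-120 cells, 5 were higher with AG-120 alone, 1 was lower with AG-120 and Nutlin, and 1 had a lower interaction. Only 1 library of vehicle with Nutlin remains in those fits and is assumed to vary like the other groups, so comparisons with that group have no spread of its own. In those fits 14 partner genes were higher and 3 lower with AG-120 alone, 8 and 10 with AG-120 and Nutlin, and 2 and 9 in the interaction. The cause was not tested.

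With the replicate number as a block, 1 member was higher with AG-120 and Nutlin, ABCC2 being lost (adjusted p = 0.0537 by edgeR). Of 18 same-number pairs 1 correlated above 0.1, so the pairing is by number only.

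Signs changed for ABCA1 with AG-120 alone (-0.000417 with library totals, -0.0437 with the length offset, -5.605e-05 to 0.12 leaving out a library) and ABCA5 (-0.23 to 0.1745 leaving out a library with AG-120 alone, -0.004684 with the length offset with Nutlin). They changed for ABCA13 in the interaction (-1.01 to 0.2464 leaving out a library, with 0.146, 0.0628, 0.0215 and 0.1344 also positive) and ABCB8 with AG-120 and Nutlin (0.002832 without the 3 libraries). ABCF1 with AG-120 and Nutlin was -0.0165 without vehicle with Nutlin replicate 3 (highest 0.4529, without replicate 1) and -0.0782 without the 3 libraries. ABCG4, with few counts, was -3.02 and -3.03 with AG-120 alone and 3.34 and 3.12 in the interaction without AG-120 replicate 1 or the 3 libraries, against 1.375 and -1.053 without vehicle replicate 3. Depth limits the 16 untested members and ABCA13, ABCC11 and ABCG4.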

Other observations

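Members that lie next to each other in the genome could differ widely in level. ABCC1 and ABCC6 are 5853 bases apart on chromosome 16 (hg19), with vehicle means of 179.5 ± 7.91 and 2.15 ± 0.150 CPM (n = 3). Reads shared with pseudogene copies of ABCC6 may be missing from its value, so the size of that difference is uncertain. ABCB1 and ABCB4 are 23423 bases apart on chromosome 7, and ABCB4 had 37 counts in all 12 libraries against 7420 for ABCB1. ABCA5 closes a cluster on chromosome 17 with ABCA8, ABCA9, ABCA6 and ABCA10. It was the sole tested gene of that cluster, and its entry overlaps that of ABCA10 by 536 bases. ABCG5 and ABCG8, which form a heterodimer for sterol secretion into bile, lie 98 bases apart on chromosome 2 and had 4 and 0 counts.

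In the promoter windows matched to RefSeq, the CCAAT box was present in 17.1% of members and 34.6% of all windows, TATAAA in 14.3% and 11.5%, and CACGTG in 11.4% and 7.3%, on either strand. For the LXR element of the DR4 type, a known sterol-responsive sequence, only the perfect repeat was searched. It had 0 matches in the 35 member windows and 7 in all 35116. A form this rare could hardly be met among 35 windows, and imperfect repeats were not searched. The 0 therefore does not show that the member windows, that of ABCA1 among them, lack an LXR element. The window covers 300 bases and says nothing of elements outside it.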
